A study of Mus musculus with 13 samples.

Results

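The genes described here are the integrins, the laminins, the type IV collagens and their partners in basement membranes, together with the discoidin domain collagen receptors, in mouse mandibular condylar cartilage. It is the cartilage on the head of the lower jaw, where the jaw meets the skull. Genes were taken by symbol. They were numbered integrin alpha and beta chains with Itgav and Itgal, laminin alpha, beta and gamma chains, Col4a1 to Col4a6, Nid1, Nid2, Hspg2, Agrn, Col15a1, Col18a1, Ddr1 and Ddr2. A further 5 symbols were set aside, among them the integrin chains Itgb2, Itgb3 and Itgam, so the integrins here are not the whole family. The choice gave 47 of the 18748 genes in the deposited table, and 46 of them had enough counts to be among the 14067 genes tested. The symbol stems also took Itgb1bp2, which encodes the integrin-binding muscle protein melusin and is no integrin chain. Aged mice (18 months old) gave 6 libraries and young mice (2 months old) gave 7. Per the labels, RNA was extracted directly from the condylar cartilage of both ages. The labels name no treatment or mutation, and strain and sex are not given in the sources used here. They number the libraries without saying whether each came from 1 mouse, so p-values measure the spread between libraries, which may in part be technical.

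Integrins are cell surface receptors made of an alpha and a beta chain, and the alpha chain largely sets which matrix protein is bound. Laminins are trimers of an alpha, a beta and a gamma chain. With type IV collagen, the nidogens and the proteoglycans perlecan and agrin they build the basement membrane, a thin sheet under epithelia and endothelia and around muscle fibres, fat cells and Schwann cells. Several of these proteins, perlecan above all, also lie in the pericellular matrix that surrounds each chondrocyte, and chondrocytes hold type II collagen through integrins of the beta 1 class. The discoidin domain receptors are tyrosine kinases that bind collagen independently of integrins.

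Library totals were 16356839 to 17876681 counts in aged mice and 17531694 to 18203443 in young mice. Of the defining chondrocyte markers, Col2a1, the main collagen of cartilage, was at 4519 to 12666 CPM (median 5405) in aged and 19674 to 32981 CPM (median 24230.3) in young libraries, and Matn1 had counts in 2 of 6 aged and 7 of 7 young libraries. The 13 markers summed to 13384 to 28807 CPM in aged libraries (median 16718), against 33338 to 49965 CPM in young libraries (median 38023), and 10 of them were lower and 1 higher in aged libraries. Much of the difference between these sums lay in Col2a1. Log2 fold changes of the 13 markers ran from −5.06 to 1.02 (median −1.89). Markers of other cells differed between the ages as well. The 17 skeletal muscle markers summed to 5998 to 21454 CPM in aged libraries (median 13235), against 722 to 7161 CPM in young libraries (median 1868). The 11 erythroid markers summed to 490.1 to 1805 CPM in aged libraries (median 1411), against 32.0 to 232 CPM in young libraries (median 61.7). For the 10 megakaryocyte and platelet markers the sums were 47.1 to 447 CPM in aged libraries (median 254), against 32.2 to 76.0 CPM in young libraries (median 35.0), and for the 11 neutrophil markers 1193 to 5799 CPM in aged libraries (median 3479), against 585 to 1856 CPM in young libraries (median 1166). None of the markers in these 5 lists was at 0 counts in all libraries of an age.

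The main type IV collagen chains, both nidogens, perlecan and agrin were lower in aged cartilage, while the largest rises were in integrin chains and in melusin. With p-values from edgeR (quasi-likelihood) adjusted by Benjamini-Hochberg over all tested genes and a threshold of 0.05, 13 of the 46 tested members were higher in aged libraries, 19 were lower and 14 were not called. Among all tested genes 24.7% were called higher and 21.6% lower, 46.2% in all. For the members the shares were 28.3% and 41.3%, so the share of rises was near the background and that of falls above it. Counts scaled by library size and TMM factors (CPM) did not overlap between the ages for 15 members, 3 of them higher and 12 lower in aged libraries. Over all tested genes 19.2% did not overlap, 8.28% higher and 10.9% lower. The median log2 fold change of the members was −0.15, against 0.014 over all tested genes, and its sign depends on the scaling of the libraries. In a bulk sample, fewer cells of a type and less RNA per cell cannot be told apart.

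The split depends on how libraries are scaled. TMM factors were 1.04 to 1.16 in aged and 0.903 to 0.957 in young libraries, and overlap was judged on TMM-scaled CPM only. In FPKM some falls without overlap in CPM did overlap. Aged libraries reached 173 FPKM for Itgb1, 19.5 for Lama4 and 13.5 for Nid1, while young ones began at 155, 17.1 and 12.4 FPKM. Itga1, which overlapped in CPM, did not in FPKM (aged from 4.54, young up to 4.14). With library sizes alone in place of TMM factors, the median over all tested genes moved to 0.24 and their calls to 7034 higher and 1253 lower, against 3471 and 3033 with TMM. The members then counted 17 higher and 15 lower, including all 13 rises and 15 of the 19 falls called with TMM. The members' own median turned positive, at 0.081 with library sizes alone, 0.028 with log2(FPKM + 1) and 0.042 with log2(FPKM + 0.1). Relative to the median of all genes, it was −0.16 with TMM and −0.16 with library sizes alone. With limma on log2(FPKM + 1), the counts were 16 higher and 15 lower, beside 6250 and 1361 over all genes. Shares of chains within a library and ratios of paired genes need no scaling between libraries and are given beside the fold changes.

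**Figure D1:**
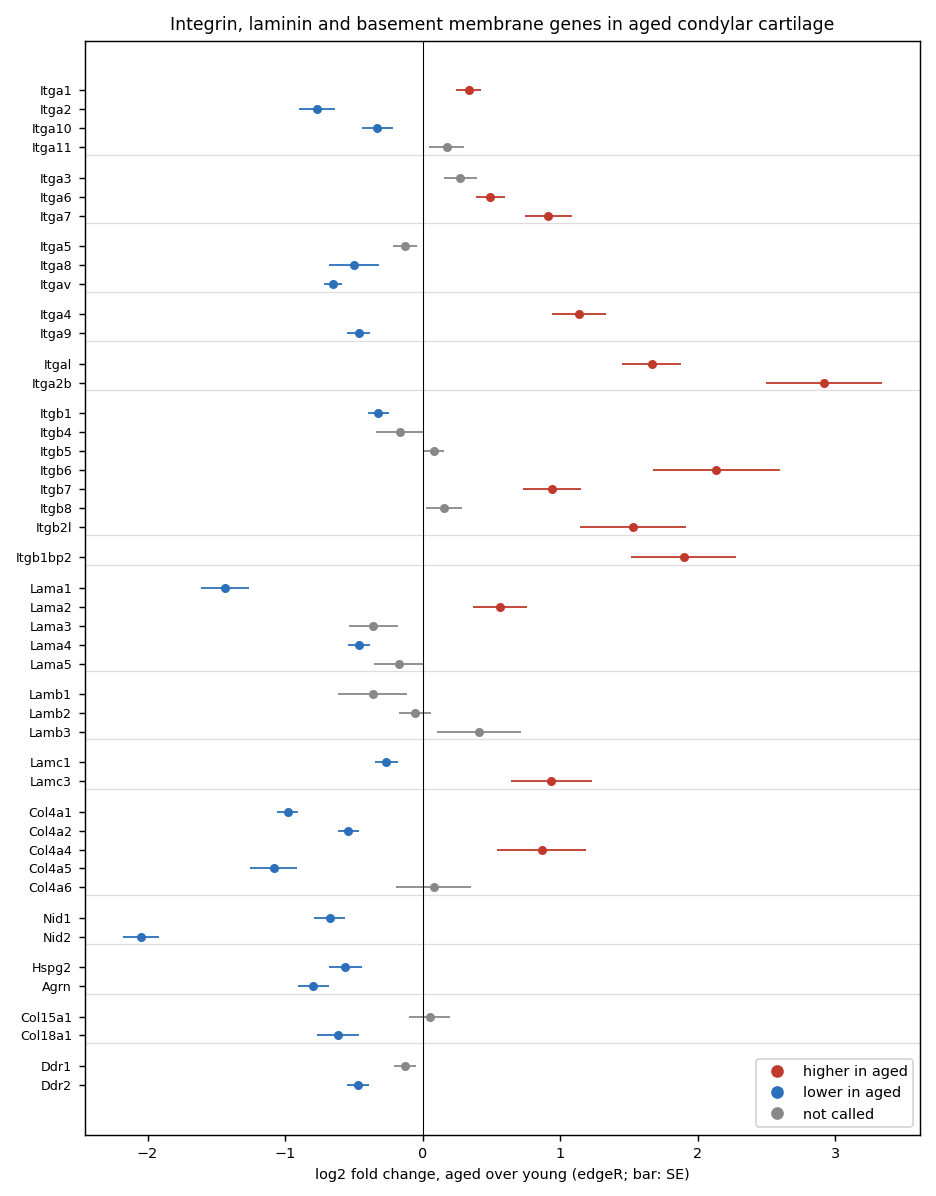
Log2 fold change of 45 of the 46 tested members, aged over young, from edgeR, with its SE as a bar. Rows run by role from the collagen-binding integrin chains at the top to the discoidin domain receptors at the bottom, and red, blue and grey points are members called higher in aged, called lower in aged and not called. The nidogens, perlecan (Hspg2) and agrin lie left of 0 and the blood cell chains Itgal and Itga2b far to the right.

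Type IV collagen forms the network of every basement membrane, mostly as a trimer of the chains encoded by Col4a1 and Col4a2. Both chains fell in aged cartilage, Col4a1 more than Col4a2. Col4a1 (gene ID 12826) was at 333 to 419 CPM (median 378) in aged libraries, against 637 to 817 CPM (median 759) in young libraries. That is 1.97-fold lower, or −0.98 ± 0.078 as log2 fold change (SE, edgeR's adjusted p = 5.98e-07). Col4a2 (gene ID 12827) was at 371 to 470.1 CPM (median 408) in aged libraries, against 546 to 677 CPM (median 614) in young libraries (log2 fold change −0.54 ± 0.075, SE, edgeR's adjusted p = 6.69e-05). For both genes all 6 aged libraries were below all 7 young ones.

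The 2 genes start next to each other on opposite strands, and their start regions are shown because the genes share this stretch and yet differed in the size of their fall. In the RefSeq table of promoters (mouse build GRCm38.p6), which holds a window of 250 bases before to 50 after the start for 34 of the 47 members, the annotated starts of Col4a1 and Col4a2 lie 21 bases apart on chromosome 8. The Col4a2 start is at base 11312805 and the Col4a1 start at base 11312826, so the annotated transcripts overlap between these starts. The Col4a1 window is chr8:11312777-11313076 on the minus strand and the Col4a2 window chr8:11312555-11312854 on the plus strand. Each is written 5′ to 3′ on its own strand, and capitals mark the 78 bases that the windows share, which read as reverse complements of each other.
Col4a1: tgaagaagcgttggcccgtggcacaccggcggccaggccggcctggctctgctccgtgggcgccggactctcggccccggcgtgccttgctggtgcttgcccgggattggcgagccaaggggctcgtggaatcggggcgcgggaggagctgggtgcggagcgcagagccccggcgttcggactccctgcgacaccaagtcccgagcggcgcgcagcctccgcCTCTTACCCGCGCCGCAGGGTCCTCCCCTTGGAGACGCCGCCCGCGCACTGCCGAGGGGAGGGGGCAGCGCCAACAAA
Col4a2: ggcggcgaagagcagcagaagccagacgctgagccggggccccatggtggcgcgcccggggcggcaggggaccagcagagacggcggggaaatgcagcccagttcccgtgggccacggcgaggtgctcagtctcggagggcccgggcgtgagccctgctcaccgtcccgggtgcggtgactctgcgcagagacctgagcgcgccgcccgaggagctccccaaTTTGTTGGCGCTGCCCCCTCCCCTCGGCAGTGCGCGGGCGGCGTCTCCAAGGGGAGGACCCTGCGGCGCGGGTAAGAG
The windows hold 74.0% and 73.7% G and C, against a median of 52.7% over the 32851 windows of the table. Searched on both strands, the GC box GGGCGG matched 1 time in the Col4a1 window and 3 times in the Col4a2 window, and it is found in 35.7% of all windows. The box CCAAT matched once in each and is found in 37.4% of all windows, while TATAAA, found in 13.6%, matched in neither. No match of one motif overlaps a match of another. A match is a description of the letters only.

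Within a library, the ratio of Col4a1 to Col4a2 was lower in the aged mice. Per gene length (FPKM), the ratio was 0.781 to 1.01 (median 0.866) in aged and 1.14 to 1.26 (median 1.18) in young libraries. All aged libraries were below all young ones, and the log2 count ratio differed by −0.44, aged minus young (two-sided exact permutation test, p = 0.000583, adjusted over the 9 ratios 0.00175). The first of these p-values is the smallest possible with 6 libraries against 7, of which there are 1716 arrangements.

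The other type IV chains were present at a small fraction of that level. They form the networks known from the kidney glomerulus (Col4a3, Col4a4 and Col4a5) and from smooth muscle and other sites (Col4a5 and Col4a6). Col4a1 and Col4a2 together made up nearly all of the summed FPKM of the 6 chains, with Col4a1 at 46.3 ± 2.14% in aged and 53.9 ± 0.752% in young libraries and Col4a2 at 53.0 ± 2.05% in aged and 45.5 ± 0.795% in young libraries (SD, n = 6 and n = 7). Col4a5 (gene ID 12830) fell to 1.89 to 4.299 CPM (median 2.94) in aged libraries, against 5.12 to 7.83 CPM (median 5.94) in young libraries, with no overlap (log2 fold change −1.08 ± 0.17, SE, edgeR's adjusted p = 0.000172). Its neighbour Col4a6, whose annotated start lies 1343 bases away on the opposite strand of the X chromosome, was at 0.562 to 1.62 CPM (median 1.36) in aged and 0.760 to 1.71 CPM (median 1.02) in young libraries and was not called (log2 fold change 0.081 ± 0.27, edgeR's adjusted p = 0.83). Col4a4 (gene ID 12829) was low at both ages, at 0.665 to 1.85 CPM (median 0.936) in aged and 0.241 to 0.948 CPM (median 0.638) in young libraries. Its rise of 0.87 ± 0.32 (SE, edgeR's adjusted p = 0.0409, range over alternatives 0.00941 to 0.112) was near the threshold and was lost on leaving out any of 8 of the 13 libraries, with log2 fold changes from 0.65 to 0.88 in those omissions. Those libraries were aged replicates 1, 2 and 3 and young replicates 1, 3, 4, 5 and 6. Col4a3 had at most 19 counts in a library and did not pass the filter on low counts. It was at 0.333 to 1.04 CPM (median 0.786) in aged and 0.0602 to 0.350 CPM (median 0.234) in young libraries, and with no filter its log2 fold change was 1.78 (edgeR's adjusted p = 0.00214).

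Nidogens are the glycoproteins that bridge laminin and type IV collagen, and the largest fall among the 46 tested members was in one of them. Nid2 (gene ID 18074) was at 21.8 to 30.6 CPM (median 24.8) in aged libraries, against 86.5 to 134 CPM (median 91.8) in young libraries. This is 4.14-fold lower, or −2.05 ± 0.13 as log2 fold change (SE, edgeR's adjusted p = 1.22e-07). Nid1 (gene ID 18073) was at 45.1 to 71.1 CPM (median 53.4) in aged libraries, against 77.3 to 98.2 CPM (median 92.8) in young libraries (log2 fold change −0.68 ± 0.11, SE, edgeR's adjusted p = 0.000247). For both nidogens all aged libraries were below all young ones. The pair changed places: the FPKM ratio of Nid1 to Nid2 was 1.57 to 1.87 (median 1.78) in aged and 0.552 to 0.855 (median 0.712) in young libraries. The log2 count ratio was higher by 1.34 in aged libraries, without overlap (two-sided exact permutation test, p = 0.000583, adjusted over the 9 ratios 0.00175).

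The proteoglycans of the basement membrane fell too. Perlecan, encoded by Hspg2 (gene ID 15530), a very large heparan sulfate proteoglycan that is also a standard component of cartilage, was at 792 to 1302 CPM (median 984) in aged libraries, against 1289 to 1814 CPM (median 1390.1) in young libraries. Its log2 fold change was −0.56 ± 0.12 (SE, edgeR's adjusted p = 0.00158), and only aged replicate 3 reached the range of the young libraries. Agrin (gene ID 11603), best known for clustering receptors at the nerve-muscle synapse, was at 61.9 to 104 CPM (median 76.1) in aged and 122 to 163 CPM (median 133) in young libraries, with no overlap (log2 fold change −0.79 ± 0.11, SE, edgeR's adjusted p = 6.28e-05). The ratio of Hspg2 to Agrn did not pass the test (log2 difference 0.24, two-sided exact permutation test, p = 0.117, adjusted over the 9 ratios 0.131). It passed without aged replicate 2, at 0.32 (adjusted p = 0.0327, range over alternatives 0.0327 to 0.258).

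The multiplexins, collagens of the basement membrane zone that carry heparan or chondroitin sulfate chains, differed. Col18a1 (gene ID 12822), the precursor of endostatin, was at 59.3 to 118 CPM (median 65.1) in aged libraries, against 87.5 to 128 CPM (median 115) in young libraries (log2 fold change −0.61 ± 0.15, SE, edgeR's adjusted p = 0.00503). Of the aged libraries, 5 lay below all young ones, at most at 68.7 CPM, and aged replicate 6 lay at 118 CPM. Col15a1 (gene ID 12819) was one of the most abundant members, at 107 ± 23.9 FPKM in aged and 88.8 ± 12.1 FPKM in young libraries (SD, n = 6 and n = 7). It was at 314 to 656 CPM (median 501) in aged and 374 to 589.6 CPM (median 464) in young libraries, with wide overlap, and was not called (log2 fold change 0.05 ± 0.15, edgeR's adjusted p = 0.81). The ratio of Col15a1 to Col18a1 rose by 0.68 on the log2 scale (two-sided exact permutation test, p = 0.00583, adjusted over the 9 ratios 0.00749).

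**Figure D2:**
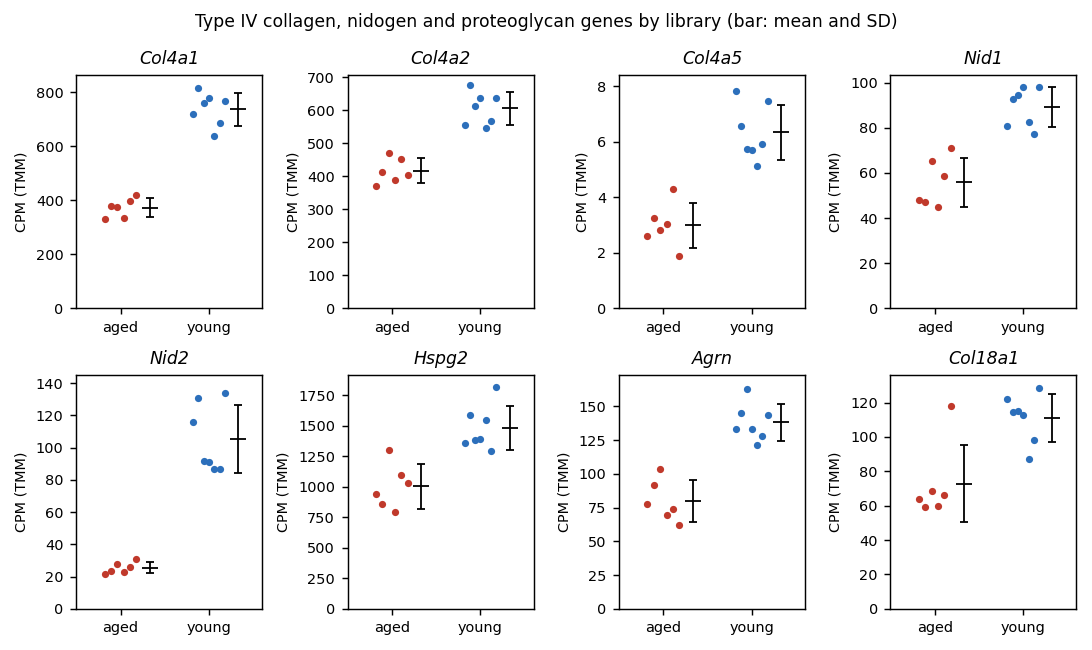
TMM-scaled CPM of 8 basement membrane genes, 1 point per library, aged (6) left of young (7), each panel with its own axis from 0, and the mean and SD beside the points. The groups do not overlap for Col4a1, Col4a2, Col4a5, Nid1, Nid2 and Agrn, and 1 aged library at 118 CPM stands apart for Col18a1.

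Endothelial cells make much of the type IV collagen, nidogen and perlecan of vessel walls, so their markers are given beside these falls. The 12 endothelial markers summed to 514 to 757 CPM in aged libraries (median 650.0), against 542 to 758 CPM in young libraries (median 624). Of them 4 were lower, 2 higher and 6 not called, with a median log2 fold change of −0.17, and none was at 0 in all libraries of an age. The falls were in Emcn (−0.73), Cldn5 (−0.57), Tek (−0.39) and Tie1 (−0.34, log2 fold changes). One of the rises, that of Vwf, the clotting factor of endothelium and platelets, weighs on the aged sum, with 73.5 to 139 CPM (median 115) in aged and 17.3 to 33.8 CPM (median 23.2) in young libraries. Pecam1, the endothelial adhesion molecule, was at 75.2 to 118 CPM (median 108) in aged and 88.2 to 140.3 CPM (median 108) in young libraries (log2 fold change −0.14 ± 0.12, edgeR's adjusted p = 0.337). The 12 pericyte and smooth muscle markers summed to 1332 to 2367 CPM in aged libraries (median 1843), against 1209 to 1810.5 CPM in young libraries (median 1339), and 3 were higher, 1 lower and 8 not called. Much of that difference lay in Des, which skeletal muscle also expresses, at 305 to 878 CPM (median 531) in aged and 28.8 to 342 CPM (median 138) in young libraries. The chondrocyte marker sum, given above, was lower in all aged libraries than in any young one, and much of that difference lay in Col2a1. The part of any of these cells in the falls was not tested.

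Among the laminins, 2 of the 11 tested chains rose, 4 fell and 5 were not called, at a median log2 fold change of −0.26, beside 24.7% called higher and 21.6% called lower over all tested genes. Laminin alpha chains carry the sites that cell receptors bind. Lama4 (gene ID 16775), the alpha chain typical of vessels and mesenchyme, was the most abundant of them at 16.4 ± 1.72 FPKM in aged and 19.4 ± 1.31 FPKM in young libraries (SD, n = 6 and n = 7). It was at 73.8 to 103 CPM (median 84.1) in aged libraries, against 104 to 133 CPM (median 119) in young libraries, with no overlap (log2 fold change −0.46 ± 0.079, SE, edgeR's adjusted p = 0.000329). Lama1 (gene ID 16772), a mainly embryonic and epithelial chain, was low at both ages and had the largest fall of the 11 chains. It was at 0.817 to 1.48 CPM (median 1.06) in aged and 2.41 to 3.92 CPM (median 2.81) in young libraries, without overlap (log2 fold change −1.44 ± 0.18, SE, edgeR's adjusted p = 2.18e-05). Lama2 (gene ID 16773), the alpha chain of muscle and peripheral nerve, went the other way, at 36.1 to 67.8 CPM (median 51.0) in aged and 19.7 to 45.4 CPM (median 36.1) in young libraries (log2 fold change 0.56 ± 0.20, SE, edgeR's adjusted p = 0.0302). Its call was lost without young replicate 3 or 7 or aged replicate 2, 3 or 5 (log2 fold changes from 0.45 to 0.53, edgeR's adjusted p up to 0.0727, range over alternatives 0.0033 to 0.0803). Lama5, of vessels and epithelia, was at 25.0 to 50.1 CPM (median 31.9) in aged and 31.5 to 46.3 CPM (median 42.3) in young libraries, and Lama3, of epithelia, at 3.60 to 8.54 CPM (median 5.43) in aged and 5.74 to 8.98 CPM (median 6.97) in young libraries. Both overlapped and were not called, at −0.18 ± 0.18 and −0.36 ± 0.18 on the log2 scale (SE). Lama3 was called lower without aged replicate 3, at −0.53 (edgeR's adjusted p = 0.0118, range over alternatives 0.0118 to 0.622).

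The share of each alpha chain differed as well. Of the summed FPKM of the 5 alpha chains, Lama4 took 61.7 ± 7.22% in aged and 70.8 ± 2.84% in young libraries and Lama2 21.7 ± 4.02% in aged and 12.3 ± 3.24% in young libraries (SD, n = 6 and n = 7). Lama5 took 12.9 ± 3.12% in aged and 12.4 ± 1.16% in young libraries. The log2 count ratio of Lama2 to Lama4 was higher by 1.04 in aged libraries (two-sided exact permutation test, p = 0.0035, adjusted over the 9 ratios 0.00629), with aged replicate 6 inside the young range and the other 5 above it. The 9 Schwann cell markers, given because Lama2 is also a chain of nerve, summed to 76.2 to 96.7 CPM in aged libraries (median 86.5), against 37.5 to 48.3 CPM in young libraries (median 46.3), with 4 higher, none lower and 5 not called. Skeletal muscle markers are set beside Lama2 further on, and the part of either cell type was not tested.

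No beta chain was called. Lamb2 (gene ID 16779), the leading beta chain, was at 247 to 439 CPM (median 279) in aged libraries, against 310.2 to 334 CPM (median 326) in young libraries (log2 fold change −0.057 ± 0.12, edgeR's adjusted p = 0.714). The young libraries were tightly grouped and the aged ones spread on both sides of them. Lamb1 was at 39.8 to 47.6 CPM in 5 aged libraries and at 131 CPM in aged replicate 6, against 65.3 to 86.1 CPM (median 74.0) in young libraries. Its log2 fold change was −0.36 ± 0.25 (edgeR's adjusted p = 0.26), and −0.78 without aged replicate 6 (edgeR's adjusted p = 4.85e-06, range over alternatives 4.85e-06 to 0.673). The log2 ratio of Lamb1 to Lamb2 likewise differed by −0.42 with all libraries (exact permutation test, p = 0.234, adjusted over the 9 ratios 0.234), by −0.74 without aged replicate 6 (adjusted p = 0.00379) and by −0.27 without aged replicate 3 (adjusted p = 0.458), with a range over alternatives of 0.00379 to 0.458. Lamb3, an epithelial beta chain, was at 0.490 to 1.74 CPM (median 0.676) in aged and 0.361 to 0.819 CPM (median 0.641) in young libraries and was not called (log2 fold change 0.41 ± 0.31, edgeR's adjusted p = 0.292). All libraries but aged replicate 6 were below 1 CPM, and without it the log2 fold change was 0.05.

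Lamc1 (gene ID 226519), the gamma chain of most laminins, was at 112 to 157 CPM (median 136) in aged and 138 to 179 CPM (median 171) in young libraries, with overlap. Its log2 fold change of −0.26 ± 0.085 (SE, edgeR's adjusted p = 0.0198) was not called with library sizes alone (−0.035, edgeR's adjusted p = 0.719, range over alternatives 0.00681 to 0.719). Lamc3 (gene ID 23928), a gamma chain known from nerve, retina and other sites, rose to 18.9 to 56.5 CPM (median 33.6) in aged libraries, against 8.25 to 36.4 CPM (median 18.1) in young libraries, with overlap (log2 fold change 0.94 ± 0.29, SE, edgeR's adjusted p = 0.018). The highest aged libraries were replicates 2 and 3, at 56.5 and 47.4 CPM. Its share of gamma chain FPKM was 19.4 ± 5.95% in aged and 9.18 ± 3.12% in young libraries (SD, n = 6 and n = 7).

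The collagen-binding integrins are the alpha chains 1, 2, 10 and 11, which pair with beta 1. Alpha 10 is the type II collagen receptor of chondrocytes and alpha 11 a receptor for fibrillar collagen on mesenchymal cells, and alpha 10 had the highest FPKM of the integrin alpha chains among the members at both ages. Itga10 (gene ID 213119) stood at 53.1 ± 10.4 FPKM in aged and 57.5 ± 3.48 FPKM in young libraries and Itga11 at 44.8 ± 8.69 FPKM in aged and 34.1 ± 4.63 FPKM in young libraries (SD, n = 6 and n = 7). In CPM, Itga10 was at 156 to 303 CPM (median 233) in aged libraries, against 272 to 305 CPM (median 295) in young libraries. The young libraries lay close together, and 5 of 6 aged libraries lay below them. The log2 fold change of −0.33 ± 0.11 (SE, edgeR's adjusted p = 0.0274) was not called with library sizes alone (−0.10, edgeR's adjusted p = 0.435, range over alternatives 0.00321 to 0.435) or without aged replicate 1 (−0.31, edgeR's adjusted p = 0.0518). Itga11 was at 147 to 241 CPM (median 180.5) in aged and 142 to 202 CPM (median 173) in young libraries and was not called (log2 fold change 0.17 ± 0.12, edgeR's adjusted p = 0.274). With library sizes alone Itga11 was called higher, at 0.40 (edgeR's adjusted p = 0.0118, range over alternatives 0.0118 to 0.552).

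Relative to each other, which needs no scaling, alpha 10 was lower against alpha 11 in aged libraries. The FPKM ratio of Itga10 to Itga11 was 0.638 to 1.52 (median 1.25) in aged and 1.45 to 2.09 (median 1.72) in young libraries. The log2 count ratio differed by −0.52 (exact permutation test, p = 0.0035, adjusted over the 9 ratios 0.00629), and by −0.34 without aged replicate 6, with an adjusted p of at most 0.0402 under every alternative run. In that library Itga10 was at 156 CPM and Itga11 at 241 CPM. The minor collagen-binding chains moved apart. Itga2 (gene ID 16398), the collagen receptor of platelets and epithelia, was at 25.4 to 36.0 CPM (median 31.1) in aged and 35.9 to 63.9 CPM (median 52.5) in young libraries, with 1 young library inside the aged range (log2 fold change −0.77 ± 0.13, SE, edgeR's adjusted p = 0.000328). Itga1 (gene ID 109700), which also binds type IV collagen, was at 22.2 to 31.0 CPM (median 27.4) in aged and 18.3 to 25.9 CPM (median 20.6) in young libraries, with 1 aged library inside the young range (log2 fold change 0.34 ± 0.091, SE, edgeR's adjusted p = 0.00775). The chondrocyte marker sum was lower in all aged libraries than in any young one, with much of that difference in Col2a1. The part of chondrocytes in the values of Itga10 was not tested.

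Of the discoidin domain receptors, Ddr2 (gene ID 18214), the fibrillar collagen receptor of mesenchymal cells, was the more abundant, at 26.2 ± 1.79 FPKM in aged and 31.2 ± 2.26 FPKM in young libraries (SD, n = 6 and n = 7). It was at 169.6 to 219.6 CPM (median 203) in aged libraries, against 241 to 319 CPM (median 263) in young libraries, with no overlap (log2 fold change −0.47 ± 0.078, SE, edgeR's adjusted p = 0.000275). Ddr1, the form typical of epithelia, was at 23.2 to 30.6 CPM (median 27.7) in aged and 26.5 to 33.2 CPM (median 29.4) in young libraries and was not called (log2 fold change −0.13 ± 0.081, edgeR's adjusted p = 0.204, and 0.10 with library sizes alone). The log2 count ratio of Ddr1 to Ddr2 was higher by 0.34 in aged libraries (exact permutation test, p = 0.00466, adjusted over the 9 ratios 0.00699).

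The RGD-binding integrins recognise fibronectin, vitronectin and the latent form of TGF-beta. Itgav (gene ID 16410), which pairs with several beta chains and is a main activator of latent TGF-beta, was at 174 to 225 CPM (median 194) in aged libraries, against 283 to 329.7 CPM (median 312) in young libraries. No aged library reached the young range (log2 fold change −0.65 ± 0.066, SE, edgeR's adjusted p = 4.24e-06). Itga5, the alpha chain of the classical fibronectin receptor, was at 107 to 151 CPM (median 110.2) in aged and 115 to 147 CPM (median 126) in young libraries and was not called (log2 fold change −0.13 ± 0.089, edgeR's adjusted p = 0.256). Its value was −0.21 without aged replicate 6 (edgeR's adjusted p = 0.0236, range over alternatives 0.0236 to 0.616) and 0.10 with library sizes alone. The FPKM ratio of Itga5 to Itgav was 0.874 to 1.32 (median 0.948) in aged and 0.613 to 0.820 (median 0.673) in young libraries, without overlap, and the log2 count ratio was higher by 0.52 in aged libraries (exact permutation test, p = 0.000583, adjusted over the 9 ratios 0.00175). Itga8, the nephronectin receptor chain, was at 8.98 to 20.6 CPM (median 14.1) in aged and 16.9 to 21.4 CPM (median 20.5) in young libraries (log2 fold change −0.50 ± 0.18, edgeR's adjusted p = 0.0349), a call lost on leaving out any of 8 libraries (young replicates 2, 3, 5, 6 and 7 and aged replicates 1, 4 and 6, at −0.50 to −0.40) and with library sizes alone (−0.27, edgeR's adjusted p = 0.2, range over alternatives 0.00674 to 0.2).

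The beta chains 1 and 5 were by far the most abundant of the 7 beta chains among the members. Itgb1 (gene ID 16412), a partner of all the collagen- and laminin-binding alpha chains, was at 461 to 618 CPM (median 538) in aged libraries, against 625 to 697 CPM (median 681) in young libraries, with no overlap. Its log2 fold change of −0.32 ± 0.076 (SE, edgeR's adjusted p = 0.00342) was −0.094 and not called with library sizes alone (edgeR's adjusted p = 0.245, range over alternatives 3.17e-05 to 0.245). Itgb5 (gene ID 16419), the beta chain of a vitronectin receptor with alpha v, was at 395 to 539 CPM (median 440.0) in aged and 395 to 456 CPM (median 417) in young libraries (log2 fold change 0.08 ± 0.072, edgeR's adjusted p = 0.385). Scaled by library size only, it was called higher, at 0.31 (edgeR's adjusted p = 0.00154, range over alternatives 0.00154 to 0.876). Of the summed FPKM of these 7 chains, Itgb1 took 40.5 ± 3.87% in aged and 49.9 ± 1.72% in young libraries and Itgb5 took 50.2 ± 5.30% in aged and 45.8 ± 2.12% in young libraries (SD, n = 6 and n = 7). Itgb5 was the most abundant of the 47 members in aged libraries by mean FPKM and Itgb1 in young ones, at 186 and 161 FPKM. The epithelial hemidesmosome chain Itgb4 and the TGF-beta activating chain Itgb8 were low, with median CPM of 10.6 and 6.86 in aged libraries and 12.5 and 6.11 in young libraries, and neither was called, at −0.16 ± 0.17 and 0.16 ± 0.13 on the log2 scale (SE). With library sizes alone Itgb8 was called higher, at 0.39 (edgeR's adjusted p = 0.0195, range over alternatives 0.0195 to 0.555).

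**Figure D3:**
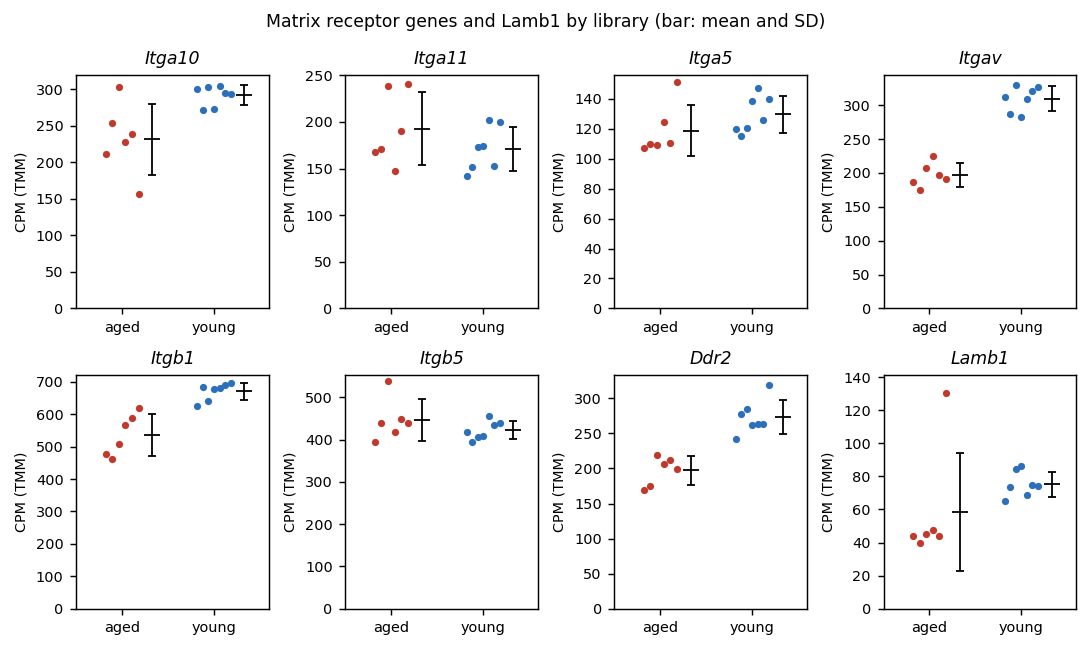
TMM-scaled CPM of 7 matrix receptor genes and of Lamb1, 1 point per library, aged (6) left of young (7), each panel with its own axis from 0, and the mean and SD beside the points. The ages do not overlap for Itgav, Itgb1 and Ddr2, the aged libraries spread more widely than the young ones for Itga10, and 1 aged library at 131 CPM stands apart for Lamb1.

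Both members of the list of blood cell alpha chains, Itga2b and Itgal, rose. Itga2b (gene ID 16399), the fibrinogen receptor chain of platelets and megakaryocytes, had the largest rise of the 46 tested members. It was at 15.04 to 137 CPM (median 77.0) in aged libraries, against 7.60 to 21.9 CPM (median 8.55) in young libraries (log2 fold change 2.92 ± 0.42, SE, edgeR's adjusted p = 0.000108). Of the summed FPKM of the 14 integrin alpha chains among the members, it took 11.2 ± 5.83% in aged and 1.59 ± 0.735% in young libraries (SD, n = 6 and n = 7). Aged replicate 2 had 15.04 CPM, inside the young range, and the other 5 aged libraries at least 68.5 CPM. In aged replicate 2 the 10 megakaryocyte and platelet markers, a list without Itga2b, summed to 47.1 CPM, and in aged replicates 1 and 6, the highest for Itga2b at 137 and 133 CPM, to 372 and 447 CPM. Of these 10 markers 9 were called higher, at a median log2 fold change of 3.09, and none was at 0 in all libraries of an age. Their part in the rise of Itga2b was not tested.

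Itgal, Itga4, Itgb7 and Itgb2l, known from leukocytes, were called higher. Itgal (gene ID 16408), the alpha chain of the leukocyte adhesion receptor LFA-1, was at 26.5 to 63.1 CPM (median 47.3) in aged libraries, against 9.84 to 17.5 CPM (median 15.3) in young libraries, without overlap (log2 fold change 1.66 ± 0.21, SE, edgeR's adjusted p = 3.36e-05). Itga4 (gene ID 16401), which holds blood-forming and immune cells to VCAM-1, was at 32.7 to 80.2 CPM (median 60.6) in aged and 20.5 to 38.5 CPM (median 25.5) in young libraries, with 1 aged library inside the young range (log2 fold change 1.14 ± 0.19, SE, edgeR's adjusted p = 0.00036). Itgb7, its lymphocyte partner, was at 13.8 to 41.0 CPM (median 25.3) in aged and 9.24 to 18.0 CPM (median 14.6) in young libraries. Itgb2l, a beta chain related to that of leukocyte integrins, was at 12.1 to 64.4 CPM (median 32.1) in aged and 6.26 to 20.6 CPM (median 14.0) in young libraries. Both overlapped between the ages, and both were called higher, with log2 fold changes of 0.94 ± 0.21 and 1.53 ± 0.38 (SE, edgeR's adjusted p = 0.00247 and 0.00534). Among the aged libraries, replicates 1, 4 and 6 were the highest for Itgal, Itga4 and Itgb2l, while Itgb7 was highest in replicate 2, at 41.0 CPM. In these 3 libraries Itgal was at 63.1, 50.2 and 57.8 CPM and the 11 neutrophil markers summed to 5053, 3495 and 5799 CPM. In aged replicates 2, 3 and 5, Itgal was at 44.4, 26.5 and 29.6 CPM and the neutrophil markers summed to 3463, 1193 and 2026 CPM. The 11 erythroid markers were also highest in aged replicates 1, 4 and 6, with sums of 1805, 1660 and 1773 CPM. In aged replicates 2, 3 and 5 they summed to 637, 490 and 1162 CPM. Of the 11 neutrophil markers 9 were called higher and 2 were not called. The 10 lymphocyte markers summed to 24.6 to 132 CPM in aged libraries (median 79.9), against 73.2 to 169 CPM in young libraries (median 104), with 1 of 7 tested markers higher and none lower. The 8 macrophage markers summed to 412 to 651 CPM in aged libraries (median 588), against 564 to 723 CPM in young libraries (median 638), with 3 higher, 2 lower and 3 not called. The part of any of these cell types in these rises was not tested. Itga9 (gene ID 104099), a receptor chain related to alpha 4 that binds tenascin C, fell instead, at 29.6 to 41.3 CPM (median 35.3) in aged and 40.3 to 53.1 CPM (median 50.7) in young libraries, with a narrow overlap (log2 fold change −0.47 ± 0.085, SE, edgeR's adjusted p = 0.000545).

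Itga7, Itgb1bp2 and Itgb6 rose. Itga7 (gene ID 16404), the laminin receptor chain of muscle fibres, was at 42.0 to 76.0 CPM (median 55.2) in aged libraries, against 21.5 to 39.2 CPM (median 28.5) in young libraries, without overlap (log2 fold change 0.91 ± 0.17, SE, edgeR's adjusted p = 0.00069). Itgb1bp2 (gene ID 26549), the gene of melusin, was at 5.52 to 17.8 CPM (median 12.6) in aged and 1.34 to 5.88 CPM (median 2.94) in young libraries, with 1 aged library below the highest young one (log2 fold change 1.90 ± 0.38, SE, edgeR's adjusted p = 0.00124). Itgb6 (gene ID 16420), best known from epithelia as a partner of alpha v, was at 3.55 to 7.86 CPM (median 5.73) in aged and 0.122 to 2.91 CPM (median 1.23) in young libraries, without overlap (log2 fold change 2.14 ± 0.46, SE, edgeR's adjusted p = 0.00196). Aged replicates 2, 3 and 5 were the highest of the aged libraries for all 3 genes and for Lama2. In these libraries Itgb1bp2 was at 17.8, 17.5 and 17.4 CPM and the 17 muscle markers summed to 18658, 21454 and 17765 CPM. In aged replicates 1, 4 and 6, Itgb1bp2 was at 5.52, 6.32 and 7.87 CPM and the muscle markers summed to 5998, 8705 and 6919 CPM. Fat cell, pericyte and smooth muscle, and endothelial marker sums were also highest in replicates 2, 3 and 5 among the aged libraries. Fat cell markers summed to 119, 129 and 114 CPM there, against 53.2, 62.0 and 73.0 CPM in replicates 1, 4 and 6. Pericyte and smooth muscle markers summed to 2087, 2367 and 2310 CPM, against 1332, 1599 and 1572 CPM. For endothelial markers the sums were 707, 757 and 697 CPM, against 514, 533 and 603 CPM. Among young libraries, replicates 2 and 4 had the highest muscle sums, 7161 and 5259 CPM, and the highest Itgb6 and Itga7, with Itgb6 at 2.91 and 2.16 CPM. Itgb1bp2 was highest in young replicates 2 and 5, at 5.88 and 4.51 CPM, and Lama2 in young replicates 4 and 5, at 45.4 and 42.7 CPM. Of the 17 muscle markers 15 were called higher and 2 were not called. The part of RNA from muscle or from these other cell types in these rises was not tested. The 8 epithelial markers, given because Itgb6 is an epithelial chain, summed to 8.69 to 26.2 CPM in aged libraries (median 15.9), against 5.12 to 16.9 CPM in young libraries (median 8.37), and 6 of them were too low to be tested.

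Itga6 (gene ID 16403), a laminin receptor chain of many cell types including blood-forming and endothelial cells, was at 48.3 to 79.0 CPM (median 69.3) in aged and 40.8 to 56.1 CPM (median 48.5) in young libraries (log2 fold change 0.49 ± 0.10, SE, edgeR's adjusted p = 0.00157). Aged replicate 2 was inside the young range and the other aged libraries above it. Itga3, another laminin receptor chain, was at 9.45 to 14.5 CPM (median 12.2) in aged and 8.33 to 11.6 CPM (median 10.001) in young libraries and was not called (log2 fold change 0.27 ± 0.12, edgeR's adjusted p = 0.0723). It was called without aged replicate 1 or 6, at 0.32 and 0.33 (edgeR's adjusted p = 0.0372 and 0.0331, range over alternatives 0.00212 to 0.172).

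**Figure D4:**
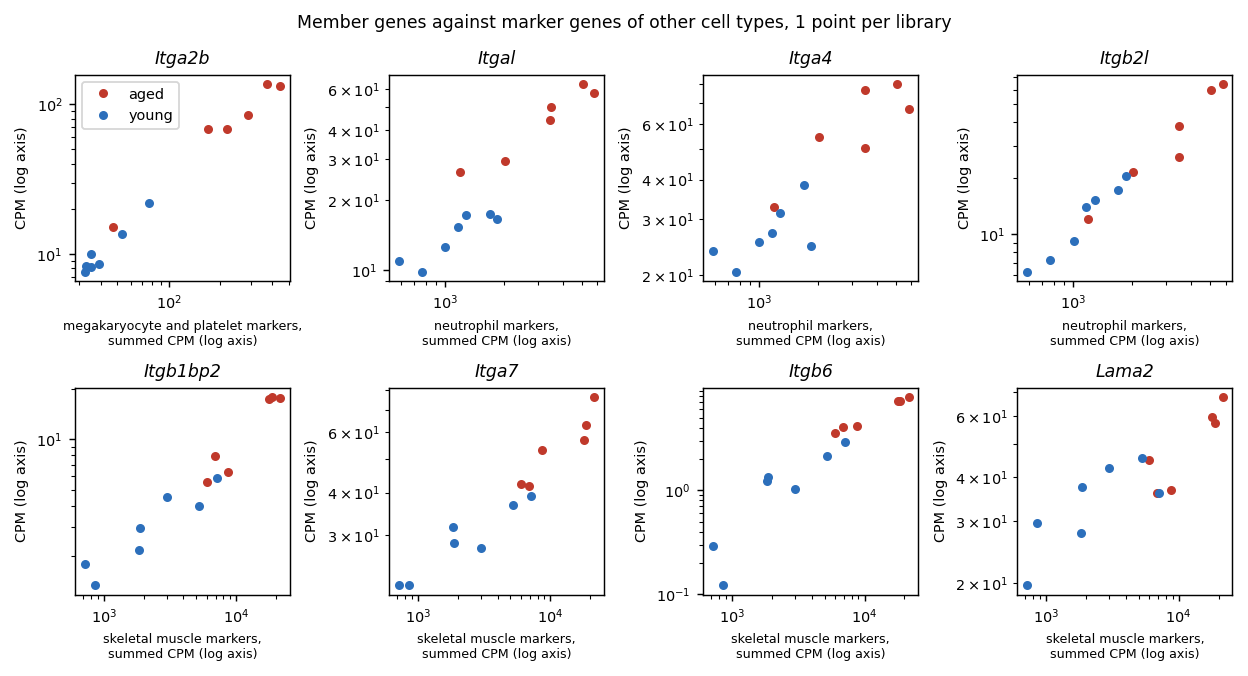
TMM-scaled CPM of 8 member genes (vertical, log axis) against the summed CPM of a list of marker genes of another cell type (horizontal, log axis), 1 point per library, with aged libraries in red and young libraries in blue. Itga2b is set against megakaryocyte and platelet markers, Itgal, Itga4 and Itgb2l against neutrophil markers, and Itgb1bp2, Itga7, Itgb6 and Lama2 against skeletal muscle markers. Aged replicates 2, 3 and 5 lie farthest right in the muscle panels and highest for these 4 genes. Fat cell, pericyte and smooth muscle, and endothelial marker sums, not shown, were also highest in these libraries among the aged ones. All points come from the same 13 libraries and scaling factors, and no correlation was tested.

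Across the 9 pairs of genes of like role compared as ratios within a library, 7 differed between the ages after adjustment and 2, Lamb1 to Lamb2 and Hspg2 to Agrn, did not pass the test. For 3 ratios the libraries of the ages did not overlap: Col4a1 to Col4a2, Itga5 to Itgav and Nid1 to Nid2. Changes in the 7 ratios, aged over young, ran from 0.698-fold for Itga10 to Itga11 to 2.54-fold for Nid1 to Nid2.

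**Figure D5:**
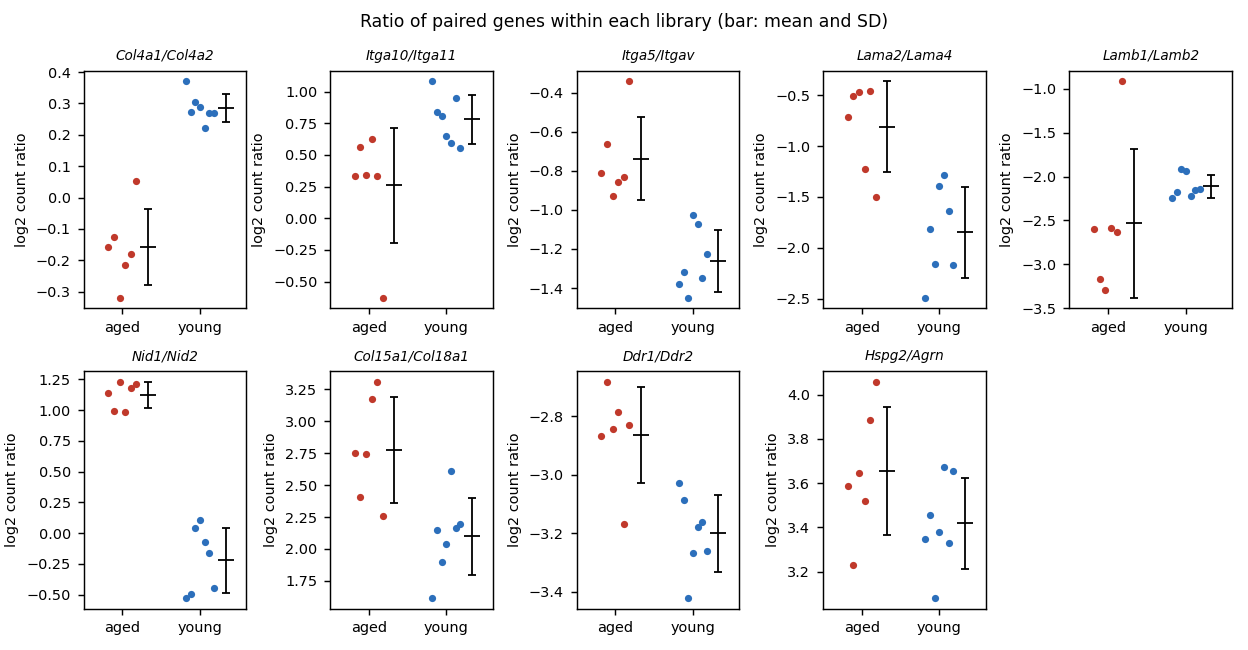
Log2 ratio of the counts of 2 genes within each library for 9 pairs, 1 point per library, aged (6) left of young (7), with the mean and SD beside the points. The axes do not start at 0. The ages do not overlap for Col4a1/Col4a2, Itga5/Itgav and Nid1/Nid2, and 1 aged library lies far above the others for Lamb1/Lamb2.

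Inside the cell, integrins act through talin, kindlins, the ILK-PINCH-parvin complex and the kinases FAK and Src. Of 28 tested genes of this adhesion machinery (29 listed), 10 rose, 5 fell and 13 were not called, at a median log2 fold change of 0.20. These counts are to be read against 24.7% called higher and 21.6% called lower over all tested genes. The rises were led by Fermt3, the kindlin of blood cells, at 66.8 to 158 CPM (median 98.5) in aged and 29.6 to 48.9 CPM (median 34.0) in young libraries (log2 fold change 1.58 ± 0.19, SE, edgeR's adjusted p = 2.72e-05), and by Parvg, the parvin of blood cells (log2 fold change 1.10 ± 0.22, SE, edgeR's adjusted p = 0.00106). The falls were led by Bcar1 (p130Cas, a docking protein of focal adhesions), at −0.46 ± 0.069, and by Src, at −0.43 ± 0.081 (SE, edgeR's adjusted p = 0.000114 and 0.000674). Ptk2, the gene of FAK, named after its value was seen, fell by 0.42 on the log2 scale, and its aged and young libraries did not overlap. The 10 rises were 6 without aged replicate 6, and the 5 falls were 3 without young replicate 4 or 7 or aged replicate 1, 2 or 4. With library sizes alone 17 rose and 2 fell.

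Other genes of basement membranes and of anchorage to them were divided, with more rises than falls. Of 28 tested (29 listed), 14 rose, 7 fell and 7 were not called, at a median log2 fold change of 0.33, and 11 did not overlap between the ages, beside 24.7% called higher, 21.6% called lower and 19.2% without overlap over all tested genes. The 8 fat cell markers, whose cells also have a basement membrane, summed to 53.2 to 129 CPM in aged libraries (median 93.5), against 20.3 to 51.7 CPM in young libraries (median 32.3), with 4 of 5 tested markers higher, and their part was not tested. The falls were led by Fras1 and Npnt. Fras1, a large protein of the epithelial basement membrane zone, was at 1.99 to 6.75 CPM (median 3.59) in aged and 9.63 to 20.9 CPM (median 12.7) in young libraries (log2 fold change −1.83 ± 0.25, SE, edgeR's adjusted p = 5.84e-05). Npnt (nephronectin, the ligand of alpha 8 integrin) was at 12.9 to 33.4 CPM (median 26.5) in aged and 59.1 to 75.3 CPM (median 67.8) in young libraries (log2 fold change −1.42 ± 0.17, SE, edgeR's adjusted p = 1.91e-05). Sparc, named after its value was seen, fell as well and held most of the CPM of the list. It was at 12911 to 18487 CPM (median 14632) in aged and 28937 to 32091 CPM (median 30090.5) in young libraries, without overlap (log2 fold change −0.98 ± 0.10, SE, edgeR's adjusted p = 5.88e-06). The whole list summed to a median of 18910 CPM in aged and 33328 CPM in young libraries. The rises were led by the SPARC-related matrix proteins Smoc1 and Smoc2. Smoc1 was at 54.7 to 127 CPM (median 115) in aged and 14.4 to 26.8 CPM (median 19.5) in young libraries and Smoc2 at 234 to 458 CPM (median 341) in aged and 84.1 to 145 CPM (median 121) in young libraries, both without overlap (log2 fold changes 2.42 ± 0.20 and 1.52 ± 0.16, SE, edgeR's adjusted p = 8.25e-07 and 4.98e-06). Ntn1 and Ntn4, netrins related to the laminin chains and chosen with their values known, had log2 fold changes of 1.19 ± 0.23 and 1.24 ± 0.12, without overlap (SE, edgeR's adjusted p = 0.00093 and 2.74e-06).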

How the data were processed

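Messenger RNA of mandibular condylar cartilage was sequenced in 6 libraries of aged and 7 of young mice. Per the labels' protocols, polyadenylated RNA was selected and the libraries kept the strand. The submitters' processing notes name RSEM 1.3.1, Bowtie2 2.3.4.3, HISAT2 2.1.0, DESeq2 1.4.5 and build GRCm39, in roles not given in the sources used here. The authors deposited expected counts (estimated counts, 5.3% of the values not whole), FPKM and TPM per gene and library in 1 table, per the file headers.

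Expected counts were rounded. The test was that of edgeR 4.0.16 in R 4.3.3: filterByExpr (minimum count 10, total 15), TMM factors, glmQLFit with robust estimation and glmQLFTest, aged over young, in all 13 libraries. Adjustment (Benjamini-Hochberg) was over all 14067 tested genes, with a threshold of 0.05. The SE is the absolute log2 fold change divided by the square root of F. Levels between genes use FPKM, which is relative to a library's own total. CPM values per library are TMM-scaled. Ratios of paired genes used counts + 0.5 and a two-sided exact permutation test over all 1716 splits. Library totals stand with the results, and members near 1 CPM rest on at most 62 counts in a library.

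The values of 1 member are not reported here, and counts include it. Members and gene lists were chosen with earlier results of these data known. Full values were given, per role, for the member with the highest mean FPKM and the called members with the largest rise and fall, and of each pathway list the leading called genes. The alternatives were RLE factors, library sizes alone, no filter or a stricter one (50 counts in 6 libraries), DESeq2 1.42.0, limma 3.58.1 on log2(FPKM + 1), log2(FPKM + 0.1) and log2(TPM + 1), a replicate block, other offsets for the ratios and each library left out in turn. Fits were tested on simulated counts. No 2 libraries of an age agreed within sampling noise (chi-square per degree of freedom at least 10.1). Figures used matplotlib 3.10.9 in Python 3.11.15. The promoter windows come from RefSeq and are of another build than the counts.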

Additional observations from a re-analysis of the deposited data

Results flagged for a closer look

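Each tested member, as log2 CPM (prior count 2), and each log2 count ratio was examined within each age for outlying libraries. A library was flagged when its gap to its nearest neighbour, as a share of the group's range, passed Dixon's 95% critical value. For genes the gap shares are of the log2 values, so they differ from shares of the plain CPM printed beside them. Of 110 groups examined, 6 passed, and chance alone flags about 1 in 20 groups. Itga2b was low in aged replicate 2 (15.04 CPM against 68.5 to 137 CPM in the other aged libraries, gap share 0.686). The other 5 were in aged replicate 6. There Lamb1 was high at 131 CPM (others 39.8 to 47.6, gap share 0.849), Col18a1 was high at 118 CPM (others 59.3 to 68.7, gap share 0.787) and Lamb3 was high at 1.74 CPM (others 0.490 to 0.792, gap share 0.638). In the same library the log2 count ratio of Lamb1 to Lamb2 was −0.92 (others −3.29 to −2.58, gap share 0.703), and that of Itga10 to Itga11 was −0.63 (others 0.33 to 0.63, gap share 0.765).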

How the results depend on the processing

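The counts of members called, 13 higher and 19 lower, were within 1.5 times under all 9 other settings and all 13 omissions of a library: 11 to 14 higher and 17 to 20 lower with a library left out, and 12 to 17 higher and 15 to 19 lower under the other settings. Adhesion machinery counts were less stable: 17 rose with library sizes alone and with limma on log2(FPKM + 1) or log2(FPKM + 0.1), while 2, 2 and 3 fell there and 3 with limma on log2(TPM + 1); leaving out a library gave 6 to 11 rises and 3 to 7 falls. The log2 ratio of Lamb1 to Lamb2 ran from −0.74 to −0.27 and that of Hspg2 to Agrn from 0.16 to 0.32 with a library left out. Directions turned only for members that were not called. With library sizes alone, log2(FPKM + 1) and log2(FPKM + 0.1), Itga5 stood at 0.10, 0.081 and 0.083, Itgb4 at 0.063, 0.013 and 0.0085, Lamb2 at 0.17, 0.13 and 0.13, and Ddr1 at 0.099, 0.068 and 0.075; Lama5 stood at 0.056 and 0.0073 under the first 2. Col4a6 stood at −0.0017 and −0.030 without aged replicates 4 and 5, and Col15a1 at −0.0012 and −0.049 without young replicate 1 and aged replicate 5, with ranges of −0.030 to 0.22 and −0.049 to 0.15 over the omissions. The TMM factors of the main fit, which are estimated from the data, were higher in every aged library than in any young one. The cause of these turns was not tested. The labels give both ages replicate numbers 1 to 6. Same-numbered libraries deviated together at r over 0.1 in 5 of 6 pairs (r from −0.12 to 0.26), while 0 of 6 matched best with their own number. These values do not settle whether the libraries are paired. The main fit did not treat them as pairs, and a fit with a replicate block is given beside it. With the replicate block, 12 members rose and 19 fell, and 5789 genes were called in all, against 6504 without it. Lama2 was then not called, at 0.54 (edgeR's adjusted p = 0.0803, range over alternatives 0.0033 to 0.0803). Members near 1 CPM (Lama1, Lamb3, Col4a3, Col4a4 and Col4a6) rest on at most 62 counts per library.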
